A study of Mus musculus with 11 samples.

Results

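Glial, vascular and microglial marker genes were examined for open chromatin in neurons sorted from the mouse embryo. The set holds 10 genes of the 22380 protein-coding genes in the mm9 annotation. They are Gfap, Aldh1l1 and Slc1a3 for astrocytes and radial glia, Olig1, Olig2, Pdgfra and Mbp for the oligodendrocyte lineage, Cx3cr1 for microglia, and Cldn5 and Pecam1 for endothelium. The genes are given by name, and every ATAC-seq region that overlapped one of their gene bodies or the 10 kb on either side was taken.

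The study sorted midbrain dopaminergic (DA) and hindbrain serotonergic (5-HT) neurons by fluorescence and compared their open chromatin. In ATAC-seq, a transposase inserts adapters into accessible DNA, and places where insertions gather are called as peaks. The DA group has 3 libraries of genotype TH-GFP, sorted as GFP-positive cells from the ventral mesencephalon, and the 5-HT group has 2 libraries from a Cre driver line crossed with ROSA YFP, sorted as YFP-positive cells from the anterior hindbrain. Both groups are embryos of day 14.5 (E14.5), from males of these lines mated with Swiss wild-type females, and the TH-GFP line was kept on C57BL/6J. GFP is driven by a fragment of the rat Th promoter, while the Cre line acts in neural progenitors and leaves YFP in their descendants. Each library pools dissected tissue of several embryos, and fewer cells were sorted for the 5-HT libraries.

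Radial glia line the embryonic ventricle, give rise to neurons and later to astrocytes, and share many genes with them. Olig1 and Olig2 are neighbouring genes for bHLH factors that act in ventral progenitors of motor neurons and oligodendrocytes, and Olig2 is also found in other neural progenitors. Microglia come from the yolk sac and endothelial cells from mesoderm, and neither arises from the neuroepithelium. A promoter can be open in a cell that does not transcribe the gene, above all when it is rich in CpG.

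All libraries were scored by the authors over a common list of regions, where 0 means that no peak was called. Since no scale is stated for the deposited score, it is also given as its rank, from 0 to 100, among the peaks of the same library. The number of peaks was 52861, 93055 and 94351 in DA replicates 1 to 3 and 38772 and 22879 in 5-HT replicates 1 and 2. Every DA library thus had more peaks than either 5-HT library, and their read depth is unknown. In a bulk sample, fewer cells with an open region and less open chromatin per cell cannot be told apart.

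The identity of the sorted cells was checked at promoters, defined as the 1 kb before and the 100 bp after a transcription start site (TSS). All 10 genes of a DA identity list had a promoter peak in each DA library, and 7 and 6 of them had one in 5-HT replicates 1 and 2. Of all protein-coding genes, 59.7%, 63.6% and 61.9% had one in DA replicates 1 to 3 and 58.2% and 49.5% in the 5-HT libraries. The lists in this paragraph are to be read against these shares. The promoter of Th, the rate-limiting enzyme of dopamine synthesis, scored 9.91, 10.6 and 8.45 in the DA libraries and 0 in both 5-HT libraries, and Lmx1a, a factor of DA progenitors, scored 5.00, 5.62 and 4.09 and again 0 in both. A promoter peak in every DA library and neither 5-HT library was found for 1.98% of protein-coding genes. The promoters of the 5-HT identity list did not separate the groups. Tests of the sorted cells for Tph2 by immunostaining and RT-qPCR are not analysed here. Of 6 genes of 5-HT identity, 4, 5 and 4 had a promoter peak in DA replicates 1 to 3 and 4 and 3 in the 5-HT libraries. The promoter of Slc6a4, the serotonin transporter, scored 4.80, 6.56 and 3.76 in the DA libraries and 0 in both 5-HT libraries. This order is opposite to the 5-HT label at this promoter, but a score of 0 in a library with fewer peaks does not show closed chromatin. Gata3 ranked 73.6, 51.5 and 61.7 in the DA libraries and 65.8 and 95.5 in the 5-HT libraries, so its highest rank was in a 5-HT library. That of Fev, the defining factor of 5-HT neurons, had a peak in 5-HT replicate 1 (3.88) and in no other library. Tph2, the enzyme of serotonin synthesis in the brain, was open in both groups, with 9.91, 7.59 and 11.1 against 7.09 and 3.59. By their lowest rank over the 5 libraries, En1 (55.6), Nr4a2 (47.7) and Foxa2 (23.1) led the DA list, and Gata3 (51.5) and Tph2 (46.0) the 5-HT list. Of 10 pan-neuronal genes, 10 had a promoter peak in each DA library and in 5-HT replicate 1, and 9 in 5-HT replicate 2. Syt1, Elavl4 and Map2 led these, with lowest ranks of 82.8, 81.0 and 76.0.

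Around the 10 marker genes lay 86 regions, 9 at their own promoters and 77 distal ones outside every annotated promoter. Another 2 regions lay at promoters of neighbouring genes (Ccdc103 and Eftud2 beside Gfap, Slc41a3 beside Aldh1l1) and were counted apart. The distal regions were spread unevenly. Aldh1l1 had 17, Slc1a3 14, Pdgfra 13, Mbp 12, Olig2 9, Pecam1 6, Gfap and Cx3cr1 2 each, and Olig1 and Cldn5 1 each. Per 100 kb of window, the 10 genes had a median of 7.59 distal regions, against 3.39 over all protein-coding genes, and Olig2 stood highest of the 10 with 38.9 in a window of 23.1 kb.

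Of the 77 distal regions, 34, 56 and 45 had a peak in DA replicates 1 to 3 and 30 and 24 in 5-HT replicates 1 and 2. These were 44.2%, 72.7% and 58.4% in the DA libraries and 39.0% and 31.2% in the 5-HT libraries, against 33.7%, 66.9% and 68.8% and against 22.0% and 10.4% of the 114058 distal regions of the whole list. All 3 DA libraries were above both 5-HT libraries, as they were over the whole list, and the marker genes stood above the whole list in every library except DA replicate 3. The difference of the group means was 18.0 regions, and it was 33.3 with 50 kb on each side of the gene and 11.3 with the gene body alone. It turned to the opposite direction when only the 22879 highest-scoring peaks of every library were used, as many as 5-HT replicate 2 has. The distal counts were then 9, 8 and 7 in the DA libraries and 13 and 24 in the 5-HT libraries. No share of the whole list of distal regions is given at this number of peaks, here or for the genes and lineages below. Whether these turns are particular to the marker genes was therefore not tested. No test over 3 and 2 libraries can give an exact permutation p below 0.100, and no p is given here for counts summed over the genes.

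As a share of the library, the 86 regions held 7.57, 6.99 and 5.62 of every 10000 peaks in DA replicates 1 to 3 (6.72 ± 1.00, SD, n = 3), and 9.54 and 12.2 in 5-HT replicates 1 and 2. Both 5-HT libraries were above the 3 DA libraries. The windows of all protein-coding genes showed the same order with a smaller relative gap, at 6773, 6468 and 5886 per 10000 in the DA libraries and 7083 and 7660 in the 5-HT libraries. With 22879 peaks in every library, the marker-gene windows held 12, 9 and 10 peaks in the DA libraries and 19 and 28 in the 5-HT libraries, or 5.24, 3.93 and 4.37 against 8.30 and 12.2 per 10000. The windows of all protein-coding genes then held 7569, 7670 and 7411 per 10000 in the DA libraries and 7619 and 7660 in the 5-HT libraries, which overlap. The order of the group means of the marker-gene share turned with a stricter threshold, and the libraries then overlapped. When only the upper part of the scores of each library was kept, down to its median, it was 6.43, 7.95 and 7.63 per 10000 in the DA libraries and 6.71 and 5.24 in the 5-HT libraries.

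**Figure D1:**
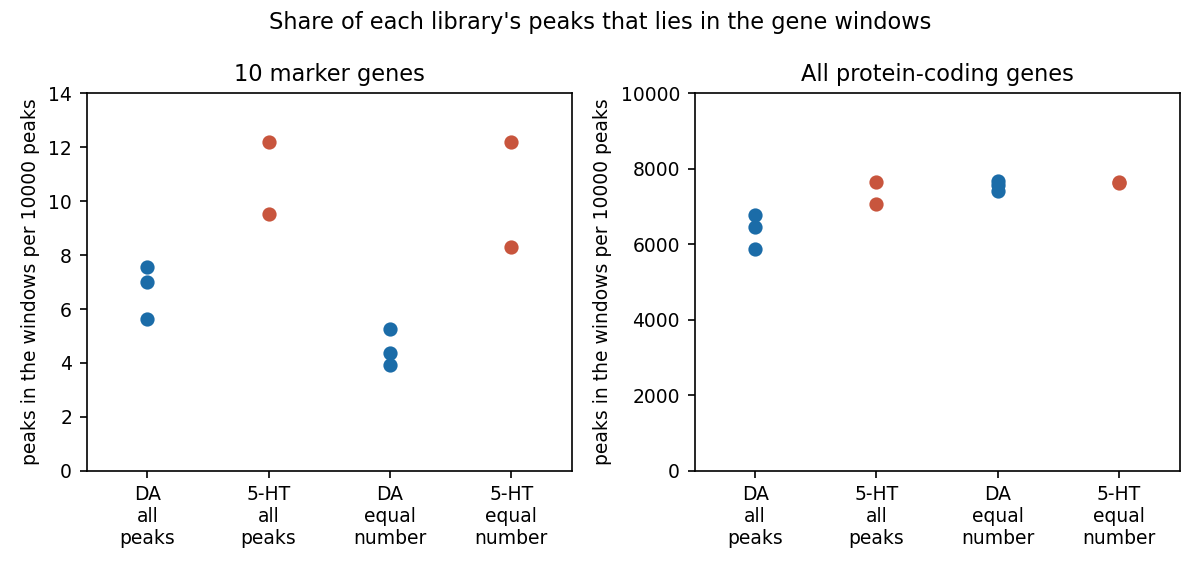
Peaks in the windows of the 10 marker genes (left) and of all protein-coding genes (right) per 10000 peaks of the library (vertical axes, from 0), with all peaks and with 22879 peaks per library; each point is 1 library, blue for DA and red for 5-HT. For the marker genes the 5-HT libraries lie above the DA libraries in both columns, while for all protein-coding genes the groups overlap at equal numbers.

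The median rank of the marker-gene peaks was lower in both 5-HT libraries than in any DA library. It was 44.9, 55.4 and 60.9 in DA replicates 1 to 3 and 43.2 and 34.3 in 5-HT replicates 1 and 2. With only the upper part of the scores of each library, the difference of the group means went from 15.0 to 2.04 rank units, and the libraries overlapped, with 42.2, 31.6 and 37.1 against 29.2 and 40.7. With 22879 peaks in every library they did not overlap, with 47.1, 43.4 and 47.1 against 26.3 and 34.3, a difference of 15.6. They overlapped with the gene bodies alone, where DA replicate 1 (43.0) was below 5-HT replicate 1 (44.9). Around all protein-coding genes, promoters and distal regions together had a median rank of 55.1, 54.7 and 57.7 in the DA libraries and 54.8 and 54.4 in the 5-HT libraries, which overlap, and the marker genes lay below this level in DA replicate 1 and in both 5-HT libraries. Since most of the 86 regions were distal, distal regions were also compared alone. Their median rank was 40.9, 52.5 and 58.9 in the DA libraries and 33.7 and 30.0 in the 5-HT libraries at the marker genes, against 42.7, 45.2 and 47.8 and against 39.3 and 37.3 around all protein-coding genes. Among distal regions, the marker genes thus lay above this level in DA replicates 2 and 3 and below it in the other libraries, by little in DA replicate 1. At or above rank 90 were 2, 3 and 4 marker-gene peaks in the DA libraries and 2 and 0 in the 5-HT libraries. These were 5.00%, 4.62% and 7.55% of the marker-gene peaks in the DA libraries and 5.41% and 0% in the 5-HT libraries, against 12.7%, 13.1% and 13.9% and against 12.0% and 12.1% around all protein-coding genes, but the marker genes had a smaller part of promoters. A comparison of distal peaks alone, added with the values known, gave 5.88%, 5.36% and 8.89% in the DA libraries and 6.67% and 0% in the 5-HT libraries, against 4.37%, 4.76% and 5.56% and against 5.20% and 3.14%. The marker-gene values rest on 2, 3, 4, 2 and 0 peaks, so no difference from the level of all protein-coding genes is read from them. The marker-gene peaks at or above rank 90 came from 4 regions, 2 downstream of Slc1a3 and 1 each in introns of Aldh1l1 and Mbp.

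By presence, 16 of the 86 regions (18.6%) were called in every DA library and absent from both 5-HT libraries, a pattern named the DA class below, against 13.3% of the 78319 regions around all protein-coding genes. A peak in all 5 libraries was found in 9 regions (10.5%), against 17.7% around all protein-coding genes. In 3 regions (3.49%) both 5-HT libraries and no DA library had a peak, named the 5-HT class, against 0.388%. The remaining 58 regions had other patterns, and 28 of the 86 had a peak in a single library, 11 of them in DA replicate 2. Each class asks for presence or absence in every library, so its count can only stay or rise when a library is left out. The shares around all protein-coding genes were not computed with a library left out. Without 5-HT replicate 1, 27 regions were in the DA class and 9 in the 5-HT class, and without 5-HT replicate 2, 20 regions were present in all remaining libraries and 7 were in the 5-HT class. Without DA replicate 1, 14 regions were present in all remaining libraries. With 22879 peaks per library, the DA class fell to 1 region (1.16%, against 2.22% around all protein-coding genes) and the regions of all 5 libraries to 2 (2.33%, against 12.1%), while the 5-HT class came to 8 (9.30%, against 2.01%). Of these 8, 3 belonged to Slc1a3, 2 to Aldh1l1 and 1 each to Olig1, Olig2 and Pdgfra. Only the one at Olig1 was among the 3 regions of the 5-HT class with all peaks.

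**Figure D2:**
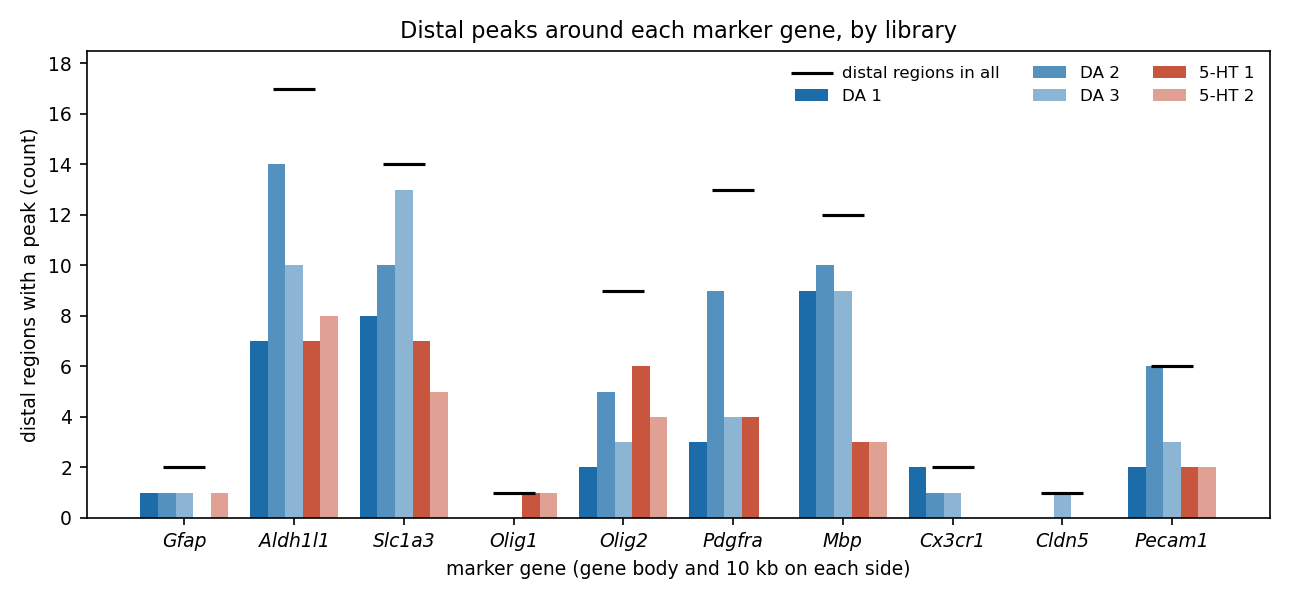
Number of distal regions with a peak (vertical axis) around each marker gene in the 3 DA libraries (blue) and the 2 5-HT libraries (red); the black bar is the number of distal regions of the gene. Both 5-HT libraries are above the DA libraries at Olig1, with 1 region against 0, and 5-HT replicate 1 is highest at Olig2 with 6 of 9, while at Mbp they hold 3 of 12 each against 9 or 10.

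At promoters, 6, 8 and 7 of the 10 genes had a peak in DA replicates 1 to 3 and 7 and 4 in 5-HT replicates 1 and 2, so the groups overlapped. The difference of the group means, 1.5 genes, was 0 without 5-HT replicate 2 and 3.00 without 5-HT replicate 1. Among all protein-coding genes, the shares were 59.7%, 63.6% and 61.9% in the DA libraries and 58.2% and 49.5% in the 5-HT libraries. The 10 genes stood near these shares in DA replicates 1 and 3 and in 5-HT replicate 2, and somewhat above them in DA replicate 2 and 5-HT replicate 1. With only 10 genes, no difference from the shares is read from these counts. These shares rest on an overlap of at least 1 bp. When the centre of the region had to lie in the window, 3, 6 and 5 of the 10 genes had a promoter peak in the DA libraries and 4 and 2 in the 5-HT libraries, and the shares of all genes were not computed in this way. With equal numbers of peaks the direction turned, with 3, 1 and 3 genes in the DA libraries and 6 and 4 in the 5-HT libraries. The shares of all genes are not given at equal numbers either, so whether this turn is particular to the 10 genes was not tested. Olig1 and Pdgfra had a promoter peak in all 5 libraries, as had 48.4% of protein-coding genes. Gfap, Slc1a3, Mbp and Cldn5 had one in all libraries except 5-HT replicate 2, a pattern shared by 1775 protein-coding genes (7.93%). Cx3cr1 and Pecam1 had none in any library, like 34.9% of protein-coding genes. The patterns of Olig2 and Aldh1l1 were rare, and they were shared by 44 genes (0.197%) and 19 genes (0.0849%).

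**Figure D3:**
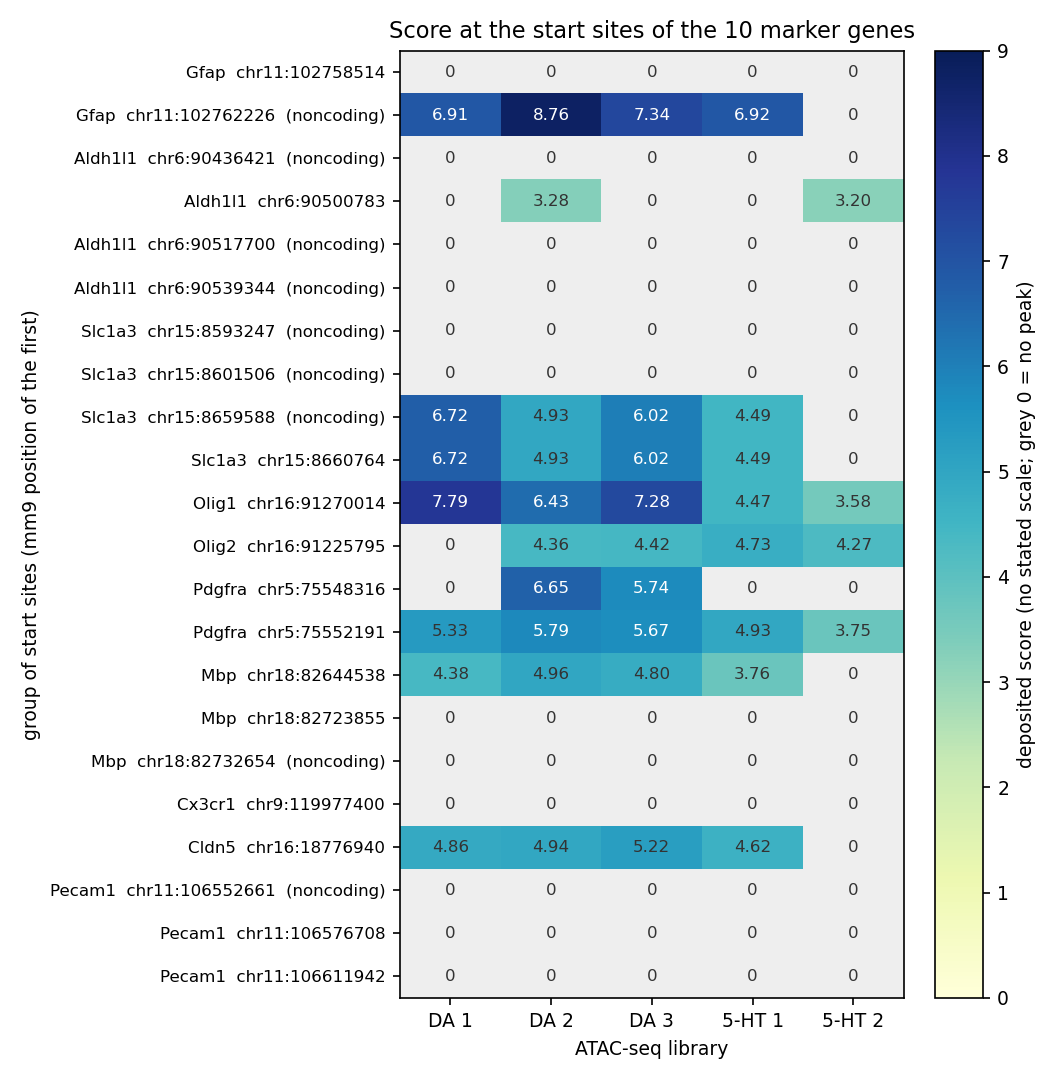
Deposited score (colour and number, no stated scale) in the 5 libraries (columns) at the 22 groups of start sites of the 10 genes (rows, mm9 position), where sites within 500 bp of each other were joined and grey 0 means no peak. A region lies at 10 of the 22 groups, and the region at 2 neighbouring groups of Slc1a3 is the same one.

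Gfap encodes the intermediate filament protein of mature astrocytes and lies at chr11:102748650-102762226 on the minus strand (mm9). No region lay at the start of its 2 coding transcripts. The only promoter region, chr11:102762228-102762446, lay at the start of a noncoding transcript at the 5′ edge of the gene. It scored 6.91, 8.76 and 7.34 in DA replicates 1 to 3 and 6.92 and 0 in 5-HT replicates 1 and 2. The DA ranks were 72.8, 86.1 and 84.5, and that in 5-HT replicate 1 was 86.3, so 5-HT replicate 2 alone stood apart. The higher-ranking of the distal regions overlapped an exon at chr11:102754333-102754526, with DA scores of 4.58, 7.14 and 4.53 and 0 in both 5-HT libraries.

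Aldh1l1 encodes a folate enzyme used to mark astrocytes. It lies at chr6:90436421-90550197 on the plus strand, and 14 of its 17 distal regions were in introns and 3 downstream. Its coding TSS at 90500783 had a weak region, chr6:90500659-90501106, with a peak in DA replicate 2 (score 3.28, rank 14.2) and 5-HT replicate 2 (score 3.20, rank 25.4) and in no other library. The intronic region chr6:90487844-90488361, upstream of that TSS, was far stronger. It scored 12.3, 13.0 and 10.7 in the DA libraries and 8.31 and 2.93 in the 5-HT libraries. Its rank was at least 93.7 in 4 of the libraries and 6.64 in 5-HT replicate 2. In all, 7, 14 and 10 distal regions of Aldh1l1 carried a peak in DA replicates 1 to 3 and 7 and 8 in the 5-HT libraries, and these ranges overlapped. With equal numbers of peaks per library both 5-HT libraries were above the DA libraries, with 3, 3 and 2 against 5 and 8. The share of the whole list is not given at equal numbers.

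Slc1a3 encodes the glutamate transporter GLAST of radial glia and astrocytes, at chr15:8584124-8660764 on the minus strand. The promoter region chr15:8659400-8660804 scored 6.72, 4.93 and 6.02 in the DA libraries and 4.49 and 0 in the 5-HT libraries. Of the 14 distal regions, 8, 10 and 13 carried a peak in DA replicates 1 to 3 and 7 and 5 in the 5-HT libraries, without overlap. With 22879 peaks per library the direction turned, with 3, 2 and 3 against 6 and 5, and the share of the whole list is not given at this number. Downstream of the gene lay 6 of the 14 distal regions. The one with the highest rank across the DA libraries, chr15:8575245-8575633, scored 8.49, 11.1 and 10.6 there and 5.36 and 0 in the 5-HT libraries. Another, chr15:8579061-8580061, named after its values were seen, had a peak in all 5 libraries, with scores of 7.57, 9.91 and 9.15 and of 6.61 and 4.51, and, of the 9 marker-gene regions of all 5 libraries, its lowest rank was the highest (72.8).

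Across the 3 astrocyte and radial glia genes, 16, 25 and 24 of 33 distal regions carried a peak in DA replicates 1 to 3 and 14 and 14 in the 5-HT libraries. These shares of 48.5%, 75.8% and 72.7% and of 42.4% and 42.4% were above those of the whole list of distal regions in every library, and by most in 5-HT replicate 2. With 22879 peaks per library, the counts were 6, 6 and 5 in the DA libraries and 11 and 14 in the 5-HT libraries, the opposite direction. The share of the whole list is not given at this number of peaks. With all peaks, the DA class held 7 of the 33 regions (21.2%) and the 5-HT class 0. Around all protein-coding genes, promoters included, the shares were 13.3% and 0.388%. The median rank of the distal peaks of the 3 genes was 49.7, 57.8 and 62.1 in the DA libraries and 49.0 and 15.4 in the 5-HT libraries, the lowest value being that of 5-HT replicate 2.

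Olig2 and Olig1 lie 41.1 kb apart on the plus strand of chromosome 16, at chr16:91225795-91228922 and chr16:91270014-91272184. The promoter region of Olig1, chr16:91269636-91270619, scored 7.79, 6.43 and 7.28 in the DA libraries and 4.47 and 3.58 in the 5-HT libraries, with ranks of 79.9, 73.5 and 84.2 against 49.7 and 45.3. Both were higher in every DA library, but with 22879 peaks per library the region was kept in DA replicates 1 and 3 and in both 5-HT libraries and lost in DA replicate 2, so no difference between the groups is read from them. The promoter region of Olig2, chr16:91225389-91225985, scored 0, 4.36 and 4.42 in the DA libraries and 4.73 and 4.27 in the 5-HT libraries, and its ranks of 48.4 and 58.2 in DA replicates 2 and 3 overlapped those of 56.5 and 67.9 in the 5-HT libraries. Both neighbouring promoters thus had a peak in libraries of both cell types when all peaks were used. With 22879 peaks per library, the Olig2 promoter region was kept in both 5-HT libraries and in no DA library. The distal Olig2 region present in all DA libraries, chr16:91222244-91223785 upstream of the gene, scored 3.69, 3.26 and 4.22 there and 3.42 and 3.07 in the 5-HT libraries.

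All 3 regions of the 5-HT class belonged to this pair of genes. The class was empty, with 0 regions, when only the upper part of the scores was kept. It was also empty when the gene bodies were taken without the 10 kb on each side. Of these 3 regions, only the one upstream of Olig1 stayed in the class with equal numbers of peaks per library. At Olig2, 5-HT replicate 1 then had a peak in 0 of the 9 distal regions and 5-HT replicate 2 in 4. Downstream of Olig2, chr16:91230375-91230695 scored 3.40 and 2.97 and chr16:91233544-91234264 scored 3.84 and 3.98 in 5-HT replicates 1 and 2. Upstream of Olig1, chr16:91263028-91263382 scored 4.25 and 4.74, with ranks of 43.2 and 76.7. The first of these was near the lowest scores of both libraries, at ranks of 10.4 and 9.31. Across the genome, 313 protein-coding genes (1.40%) had at least 1 such distal region in their window, and 21 genes (0.0938%), Olig2 among them, had 2 or more.

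Olig1 and Olig2 had 12 regions between them, and 5-HT replicate 1 had more of these with a peak than any DA library. A peak was present in 3, 7 and 5 of them in DA replicates 1 to 3, and in 9 and 7 in 5-HT replicates 1 and 2, so that DA replicate 2 and 5-HT replicate 2 were equal. Of the 74 regions of the other 8 genes, 37, 58 and 48 were called in DA replicates 1 to 3, and 28 and 21 in the 5-HT libraries. Of the 78319 regions around all protein-coding genes, 35802, 60184 and 55534 were called in the DA libraries and 27461 and 17526 in the 5-HT libraries. All DA libraries were above both 5-HT libraries there too, so the order at the other 8 genes is not particular to them. Without Olig1 and Olig2, a grouping chosen after the values were seen, the share of the library was 7.0, 6.23 and 5.09 per 10000 in the DA libraries and 7.22 and 9.18 in the 5-HT libraries. The groups still did not overlap, by a small margin for 5-HT replicate 1.

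**Figure D4:**
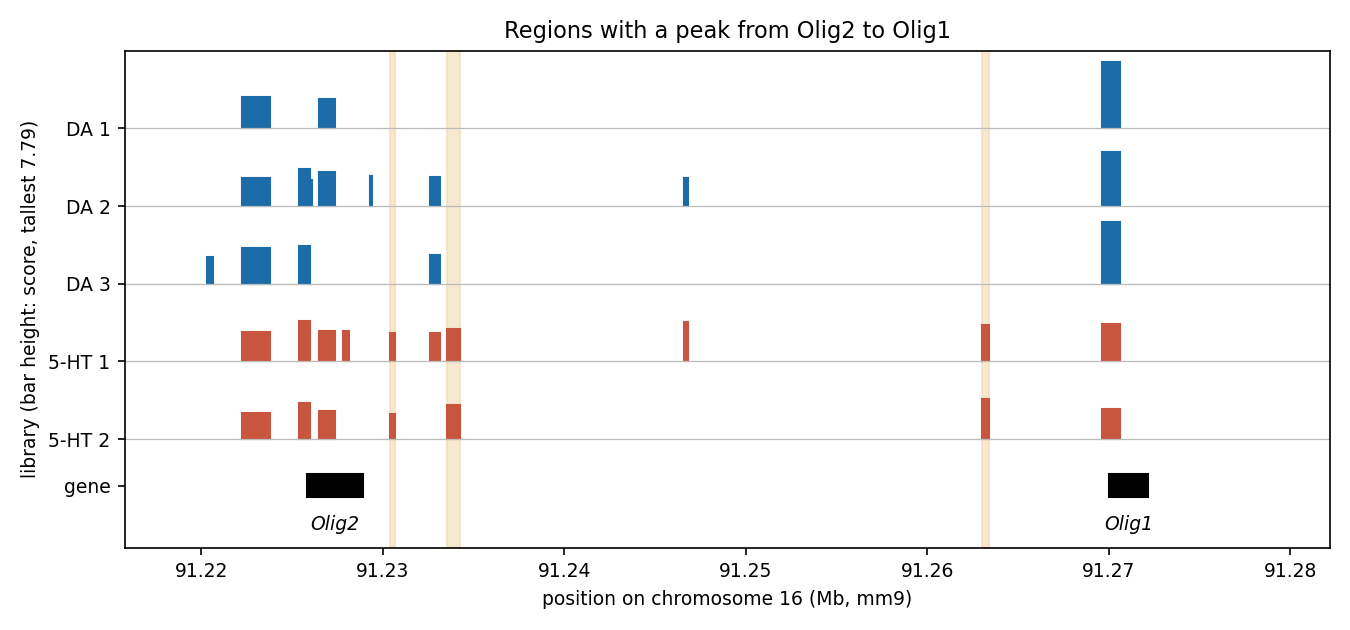
Regions with a peak from 10 kb before Olig2 to 10 kb after Olig1 on chromosome 16 (horizontal axis, Mb, mm9), with 1 row per library and bar height proportional to the score (tallest bar 7.79); black boxes are the genes. Shaded bands mark the 3 regions called in both 5-HT libraries and no DA library.

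The 3 regions are shown as examples of the 5-HT pattern at the Olig genes, with the central 300 bases of each on the plus strand of mm9. Capitals mark the words searched for on both strands, whose frequencies are given further on.
Olig2 chr16:91230385-91230684: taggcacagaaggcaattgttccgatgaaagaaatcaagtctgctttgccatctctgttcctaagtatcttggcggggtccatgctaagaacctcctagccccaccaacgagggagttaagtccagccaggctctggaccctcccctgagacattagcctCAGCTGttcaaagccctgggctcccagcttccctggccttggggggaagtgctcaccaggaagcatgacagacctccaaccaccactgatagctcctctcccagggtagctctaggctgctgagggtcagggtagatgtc
Olig2 chr16:91233754-91234053: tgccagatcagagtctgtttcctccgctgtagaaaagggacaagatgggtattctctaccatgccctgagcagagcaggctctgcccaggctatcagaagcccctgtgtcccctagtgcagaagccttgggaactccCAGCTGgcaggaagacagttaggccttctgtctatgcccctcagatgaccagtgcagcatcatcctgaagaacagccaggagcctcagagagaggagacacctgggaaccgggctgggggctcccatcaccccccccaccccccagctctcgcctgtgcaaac
Olig1 chr16:91263055-91263354: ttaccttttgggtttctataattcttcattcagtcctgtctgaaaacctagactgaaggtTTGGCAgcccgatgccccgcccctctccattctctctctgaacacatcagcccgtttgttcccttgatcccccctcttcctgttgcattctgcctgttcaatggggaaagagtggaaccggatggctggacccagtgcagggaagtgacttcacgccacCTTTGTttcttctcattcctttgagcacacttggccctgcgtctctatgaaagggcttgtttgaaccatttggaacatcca

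Each Olig2 sequence holds 1 E-box CAGCTG, at base 161 of the first and base 138 of the second. The Olig1 sequence holds 1 NFI half-site TTGGCA at base 61 and, at base 220, the SOX word ACAAAG on the opposite strand, read here as CTTTGT.

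Pdgfra encodes the PDGF receptor of oligodendrocyte precursors and lies at chr5:75548316-75594229 on the plus strand. Its 2 coding start sites differed. At the upstream site, chr5:75547289-75547540 scored 0, 6.65 and 5.74 in the DA libraries and 0 in both 5-HT libraries. At the downstream site, chr5:75552174-75553372 had a peak in all 5 libraries, with DA scores of 5.33, 5.79 and 5.67 and 4.93 and 3.75 in the 5-HT libraries. Of its 13 distal regions, 3, 9 and 4 carried a peak in DA replicates 1 to 3 and 4 and 0 in the 5-HT libraries. None had a peak in both 5-HT libraries, and 2 of the 13 were in the DA class, against 13.3% of the regions around all protein-coding genes. The higher-ranking of these, intronic at chr5:75575749-75576155, scored 4.92, 5.51 and 4.65.

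Mbp encodes myelin basic protein. The annotated gene, chr18:82644538-82755029 on the plus strand, includes the upstream start of the longer golli transcripts, which are known in neurons, and the start of the classic myelin transcripts lies within it. The region at the upstream start, chr18:82643921-82645522, scored 4.38, 4.96 and 4.80 in the DA libraries and 3.76 and 0 in the 5-HT libraries. At the group of 11 coding transcripts that starts from 82723855, no region was found in any library. The strongest distal region was intronic, chr18:82737030-82737484, with DA scores of 9.76, 13.0 and 9.34 (ranks of 90, 95.5 and 91.9) and 8.01 and 0 in the 5-HT libraries. Of the 12 distal regions of Mbp, 9, 10 and 9 carried a peak in DA replicates 1 to 3 and 3 and 3 in the 5-HT libraries. With 22879 peaks per library the groups overlapped, with 3, 2 and 2 against 1 and 3. With all peaks, 5 were in the DA class, more than for any other of the 10 genes, against 13.3% of the regions around all protein-coding genes. The lowest ranks of these 5 over the DA libraries were 66.0, 19.1, 14.6, 13.8 and 11.3, so most were weak in at least 1 DA library.

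The 4 oligodendrocyte lineage genes together had a peak in 14, 24 and 16 of 35 distal regions in the DA libraries and in 14 and 8 in the 5-HT libraries. DA replicate 1 and 5-HT replicate 1 were equal, so the groups met. The shares were 40.0%, 68.6% and 45.7% in the DA libraries and 40.0% and 22.9% in the 5-HT libraries, above those of the whole list except in DA replicate 3. The median rank was 13.9, 36.9 and 45.6 in the DA libraries and 20.6 and 34.3 in the 5-HT libraries, so here the groups overlapped and DA replicate 1 was lowest. The DA class held 7 regions (20.0%), 5 at Mbp and 2 at Pdgfra, and the 5-HT class 3 (8.57%), all at Olig1 and Olig2. Around all protein-coding genes, promoters included, the shares were 13.3% and 0.388%, and shares of distal regions alone are not given.

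Cx3cr1, the fractalkine receptor of microglia, lies at chr9:119957811-119977400 on the minus strand. No region lay at its TSS, and 2 regions lay in its window. The upstream one, chr9:119982379-119982524, scored 5.22, 5.23 and 3.97 in the DA libraries and 0 in both 5-HT libraries. The intronic one had a peak in DA replicate 1 alone (3.96).

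Cldn5, a tight junction protein of brain endothelium, is a short gene at chr16:18776940-18778353 on the plus strand. The region at its promoter, chr16:18776605-18777942, scored 4.86, 4.94 and 5.22 in the DA libraries and 4.62 and 0 in the 5-HT libraries. A distal region upstream had a peak in DA replicate 3 alone (3.15). Pecam1, an adhesion molecule of endothelial cells, had no region at any of its 3 groups of start sites in chr11:106515531-106611942. Of its 6 distal regions, 2, 6 and 3 carried a peak in DA replicates 1 to 3 and 2 and 2 in the 5-HT libraries. One intronic region, chr11:106519316-106519753, had a peak in all 5 libraries (5.42, 4.90 and 4.99 in the DA libraries, 4.00 and 4.62 in the 5-HT libraries), and another, chr11:106598076-106598847, also named after its values were seen, scored 4.58, 5.38 and 4.73 in the DA libraries only. Over the distal peaks of both endothelial genes, the median rank was 47.0, 60.7 and 57.6 in the DA libraries and 25.4 and 51.3 in the 5-HT libraries, and the groups overlapped. The 2 endothelial genes differed at the promoter, which had a region at Cldn5 and none at Pecam1.

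The start sites differed in base composition, which was computed over the 500 bases on each side of the TSS after the values were seen. Of 13 groups of start sites with a coding transcript, 4 had a ratio of observed to expected CpG of 0.6 or more, and all 4 had a region (Olig1 0.808, Olig2 0.742, the downstream site of Pdgfra 0.617 and the upstream site of Mbp 0.60). Of the 9 below 0.6, 4 had a region. Among all protein-coding genes, taking the most upstream coding TSS, 97.2% of those at 0.6 or more had a promoter peak in at least 1 library, and 37.7% of those below. The sites of Cx3cr1 (0.197) and of Pecam1 (0.216 and 0.295) were the 3 lowest of the 13.

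Further markers of each lineage were counted at promoters in the same way, to be read against the shares of all protein-coding genes, which were 59.7%, 63.6% and 61.9% in DA replicates 1 to 3 and 58.2% and 49.5% in 5-HT replicates 1 and 2, with 34.9% in no library. Of 15 further astrocyte and radial glia genes, 11, 13 and 11 had a promoter peak in DA replicates 1 to 3 and 9 and 8 in the 5-HT libraries, above the share of all genes in the DA libraries and near it in the 5-HT libraries. The 3 highest by their lowest rank in the 5 libraries were Glul (glutamine synthetase), Vim (vimentin) and Sox9, with lowest ranks of 68.4, 48.3 and 34.5. Gjb6, a connexin of astrocytes, was in the DA class with 4.00, 4.99 and 4.61, as were 1.98% of protein-coding genes. The defining astrocyte genes Gja1 and S100b had no promoter peak in any library, and Aqp4 had one in DA replicates 2 and 3 (3.88 and 3.48).

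Of 12 further oligodendrocyte lineage genes, 3, 4 and 3 had a promoter peak in DA replicates 1 to 3 and 4 and 4 in the 5-HT libraries, and 7 had none in any library. They thus lay below the share of all genes in every library. Among the 7 were Sox10, the defining factor of the lineage, Cspg4 and Enpp6, and the myelin genes Mog, Mag and Mobp. Ugt8a and Cldn11 had a peak in all 5 libraries, with lowest ranks of 49.1 and 37.0. Gpr17, a receptor of differentiating oligodendrocyte precursors, was in the 5-HT class, with scores of 3.83 and 3.13 in 5-HT replicates 1 and 2. These were low, at ranks of 28.1 and 20.6, where the lowest scores of the 2 libraries were 3.37 and 2.83. Whether it stays in the class with equal numbers of peaks is not given. Only 3 of 22380 protein-coding genes (0.0134%) were in that class at the promoter, and the other 2, chosen for naming after their values were seen, were Rab17 and Gm16223.

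Of 14 further microglial genes, 2, 3 and 3 had a promoter peak in DA replicates 1 to 3 and 3 and 1 in the 5-HT libraries, again below the share of all genes in every library. Of these 14, 10 had none in any library, among them Csf1r, Aif1, Sfpi1 (PU.1), Ptprc, Trem2 and Tyrobp. P2ry12 had a peak in DA replicate 1 (3.52) and 5-HT replicate 1 (4.31). Of 14 further endothelial genes, 7, 9 and 9 had a promoter peak in DA replicates 1 to 3 and 8 and 5 in the 5-HT libraries, near the share of all genes in DA replicates 2 and 3 and 5-HT replicate 1 and below it in the others. Vwf, Abcb1a and Slc2a1 were highest, with lowest ranks of 37.0, 28.9 and 22.2, whereas Cdh5, Tie1, Emcn, Erg and Eng had no promoter peak. Of 9 pericyte genes, 3, 8 and 5 had a promoter peak in DA replicates 1 to 3 and 3 and 2 in the 5-HT libraries, above the share of all genes in DA replicate 2 alone. Vtn and Kcnj8 had one in all 5 libraries, with lowest ranks of 63.7 and 15.6, and Abcc9 was in the DA class with 4.39, 3.8 and 4.15.

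Short words of factors that act in these lineages were counted in the central 200 bp of the 77 distal regions, on both strands. The NFI half-site TTGGCA was in 16 of them (20.8%), against 14.3% of all 114058 distal regions. A SOX word, ACAAAG or ACAATG, was in 24 (31.2%, against 27.8%), and the E-box CAGCTG, which reads the same on both strands, in 25 (32.5%, against 19.6%). The ETS word CCGGAAGT and the PU.1 word GAGGAAGT, which share their last 6 letters, were in 0 regions each, against 0.200% and 1.25%. These are counts of letters, and nothing follows from them about the binding of a factor.

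The Gfap promoter region and the distal regions of Slc1a3 and Aldh1l1 with the highest rank across the DA libraries are shown because they scored highest at these genes in the DA libraries. Each is on the strand of its gene in mm9, whole for Gfap and as the central 300 bases for the other 2, with the same words in capitals.
Slc1a3 chr15:8575289-8575588: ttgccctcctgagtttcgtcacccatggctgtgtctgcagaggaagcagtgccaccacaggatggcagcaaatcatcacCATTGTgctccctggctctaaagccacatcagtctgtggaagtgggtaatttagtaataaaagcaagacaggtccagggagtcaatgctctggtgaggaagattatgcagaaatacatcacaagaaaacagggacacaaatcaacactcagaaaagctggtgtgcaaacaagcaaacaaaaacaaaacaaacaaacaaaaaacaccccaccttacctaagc
Aldh1l1 chr6:90487952-90488251: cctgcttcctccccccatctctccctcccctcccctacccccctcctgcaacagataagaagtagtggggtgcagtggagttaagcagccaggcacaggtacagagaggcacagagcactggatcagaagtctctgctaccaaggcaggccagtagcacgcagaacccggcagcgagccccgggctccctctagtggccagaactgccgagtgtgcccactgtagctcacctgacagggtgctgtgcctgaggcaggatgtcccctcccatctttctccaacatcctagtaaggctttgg
Gfap chr11:102762228-102762446: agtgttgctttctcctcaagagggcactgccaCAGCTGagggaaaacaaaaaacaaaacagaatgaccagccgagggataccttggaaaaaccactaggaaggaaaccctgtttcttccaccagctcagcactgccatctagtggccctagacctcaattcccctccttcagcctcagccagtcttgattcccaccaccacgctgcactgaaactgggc

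The Gfap sequence holds 1 E-box CAGCTG at base 33, and the Slc1a3 sequence holds the SOX word ACAATG on the opposite strand at base 80, read here as CATTGT. None of the words was in the Aldh1l1 sequence, whose region had the highest DA scores of the 3.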

How the data were processed

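ATAC-seq of 3 DA and 2 5-HT libraries was used, and RNA-seq was not analysed here. The libraries come from separate sorts. As the submitters' notes and the methods state, Trimmomatic served for trimming, Bowtie2 for alignment to mm9, Picard for duplicates, MACS2 for peaks per library and BEDOPS to join close peaks; tool versions and the peak threshold are not given in the sources used here. The authors deposited a score per region and library, with no stated scale and no read depth. One misspelled chromosome name was corrected. All region ends fell within the mm9 chromosomes.

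Regions were matched to GENCODE vM1 by an overlap of at least 1 bp, with all transcripts. Promoter windows covered 1 kb before and 100 bp after each TSS, and distal regions lay outside the promoter of any gene. Of 100 listed symbols, 99 matched by name and 1 through RefSeq. All members were named, with the distal region of the highest lowest rank over the DA libraries and regions of both 5-HT and no DA library. From the further lists, genes with a promoter peak in one cell type only and up to 3 per list with the highest lowest rank were named, and genes without a peak were named after their values were seen. Some genes of the lists and the driver of the Cre line are not reported here. Members and lists were chosen with earlier results of these data known. Exact permutation tests had been planned for the 4 counts and ranks; their p-values are left out for this reason. Python 3.11.15, NumPy 2.4.6, pandas 2.3.3 and matplotlib 3.10.9 were used, and the computations were tested on simulated data. The groups come from different crosses, so DA and 5-HT libraries with the same number do not share a litter, and nothing says whether they share a day.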

Additional observations from a re-analysis of the deposited data

How the results depend on the processing

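The 4 library-level results were the number of distal regions with a peak, the number of genes with a promoter peak, the peaks per 10000 and the median rank, each as the mean of the DA libraries minus that of the 5-HT libraries. Of 60 alternatives, 56 kept the direction, 3 reversed it and 1 gave no difference. With an equal number of peaks per library, the difference in distal regions went from 18.0 to -10.5 and that in promoter genes from 1.5 to -2.67. With only the upper part of the scores of each library, the difference in peaks per 10000 went from -4.17 to 1.36. The difference in median rank kept its direction there but went from 15.0 to 2.04. The difference in distal regions was 33.3 with 50 kb on each side and 11.3 without the extension. The cause was not tested. Leaving out each replicate in turn gave 12.5 to 23.5 distal regions, 0 to 3.00 promoter genes, -5.52 to -2.82 peaks per 10000 and 10.5 to 19.4 rank units.

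As a replicate block over replicates 1 and 2, the paired differences were 18.0, 1.5, -3.61 and 11.4. The replicate numbers are not known to pair the samples, and the correlation over all regions of DA replicate 1 minus 2 with 5-HT replicate 1 minus 2, by presence, was 0.0544.

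Of the 86 regions, the 16 of the 3 DA libraries only became 1 with equal numbers of peaks, 8 with the upper part of the scores and 26 with 50 kb on each side, and the 9 of all 5 libraries became 2 with equal numbers and 2 with the upper part. The 3 of both 5-HT libraries only, a count added after the data were seen, became 8 with equal numbers, 0 with the upper part, 0 without the 10 kb extension and 5 with 50 kb. Among the 8 was only 1 of the 3, the region upstream of Olig1. Leaving out each replicate gave 16 to 27, 9 to 20 and 3 to 9, counts that could only stay or rise in this way. Merging regions less than 100 bp apart, chosen after seeing the data, left the 3 counts at 16, 9 and 3. The unknown read depth limits every count of absent peaks: a score of 0 in a 5-HT library, above all replicate 2, does not show closed chromatin.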
